A study of Mus musculus with 6 samples.

Results

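The regions described here are H3K4me1 peaks that bone marrow-derived macrophages (BMDMs) carried with and without lipopolysaccharide (LPS), far from the start of any protein-coding gene. They were chosen by measured values: a peak of the LPS H3K4me1 list on chromosomes 1 to 19, narrower than 2000 bp, that met a peak of the untreated (PBS) list over at least 1 bp and whose summit lay more than 100 kb from every protein-coding transcription start site (TSS). Of 73049 LPS peaks, 71661 lay on these chromosomes, 69945 of those were narrow enough, 42346 were shared, and 6042 of the shared peaks met the distance limit. These 6042 are called distal shared peaks below. A TSS was the 5′ end of a gene record of GENCODE M21. When the start of every annotated transcript was used instead, a setting chosen after seeing the data, 3321 of the 6042 (55.0%) were still beyond the limit.

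The working name for these regions was gene desert peaks, and with gene starts the annotation goes against it. The summit lay inside a protein-coding gene for 3053 of the 6042 distal shared peaks, or 50.5% (95% Wilson interval 49.3 to 51.8), and 2953 of these were in introns. The other 2989 summits lay outside every protein-coding gene, and 722 of those lay inside a long non-coding gene. Among the 3321 peaks left with transcript starts, 20.5% lay inside a protein-coding gene. The name distal shared peak is therefore used.

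The data were CUT&RUN profiles, in which an antibody directs a nuclease to chromatin and the released DNA fragments are sequenced. The BMDMs came from C57BL/6 mice, young adult males per the methods, and were treated for 1 h with LPS, a bacterial cell wall component sensed by macrophages, or with PBS. Each treatment had 1 library for H3K4me1, 1 for H3K27ac and 1 for control IgG, 6 samples in all, and the 4 histone mark libraries had peak lists. All groups had the genotype label C57BL/6 and were BMDMs grown from marrow in medium conditioned by L929 cells, and the labels do not say whether the libraries share an animal or a culture. With 1 library per treatment and antibody no value has a replicate error, no test between treatments could be made, and intervals cover counting error only. Each list gives a −log10 q and a fold enrichment, which is summit coverage divided by the local background after adding 1 to both. The added 1 lowers the fold most where the background is low. Whether the IgG libraries served as the control behind that background was not given in the sources used here, and the counts rest on the background levels that the values imply. The number of fragments at each summit was recovered from these values, and the H3K4me1 libraries held an inferred 7010000 fragments under LPS and 6860000 under PBS. Of 10 macrophage marker genes, 10 had an H3K4me1 peak within 10 kb of the TSS under LPS and 8 under PBS, where Cd68 and Mertk had none. Of 10 marker genes of other cell types, 2 had one under LPS, Neurod1 and Cdh5, and 1 under PBS, Cdh5.

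Monomethylation of histone H3 at lysine 4 marks enhancers, both those in use and those held ready, while acetylation at lysine 27 is found at enhancers and promoters in use. Enhancers can act on genes across long stretches of DNA, and genes that encode regulators of cell identity often have many of them. In macrophages the ETS factor PU.1 opens much of the enhancer repertoire, often beside AP-1, C/EBP, RUNX and IRF family members. NF-kB and AP-1 are activated when LPS is sensed through TLR4.

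The distal shared peaks that ranked highest in both lists show what these regions look like in sequence. The 8 below had the highest mean percentile of −log10 q over the LPS and PBS lists and lie on chromosomes from which sequence is printed. Each is the 201 bases of GRCm38 centred on the LPS summit, read 5′ to 3′ on the plus strand and named by the nearest protein-coding gene. Capitals mark a match to the PU.1-type letters AGGAAGT or to the AP-1 letters TGANTCA on either strand.
Ppp3ca (chr3:136790605-136790805): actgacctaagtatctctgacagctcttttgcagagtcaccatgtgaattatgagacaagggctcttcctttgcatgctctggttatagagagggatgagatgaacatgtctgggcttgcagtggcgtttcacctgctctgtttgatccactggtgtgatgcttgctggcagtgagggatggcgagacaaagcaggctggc
Ednrb (chr14:103945955-103946155): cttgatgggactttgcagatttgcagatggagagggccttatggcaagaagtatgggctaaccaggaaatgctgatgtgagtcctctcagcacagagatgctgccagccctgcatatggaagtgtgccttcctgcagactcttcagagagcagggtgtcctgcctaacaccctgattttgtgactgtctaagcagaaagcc
Adgrl2 (chr3:148248684-148248884): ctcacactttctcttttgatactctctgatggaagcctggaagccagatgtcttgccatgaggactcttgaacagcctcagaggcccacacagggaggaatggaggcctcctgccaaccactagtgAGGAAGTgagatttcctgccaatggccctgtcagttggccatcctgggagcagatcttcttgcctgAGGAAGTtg
Bbs9 (chr9:22672981-22673181): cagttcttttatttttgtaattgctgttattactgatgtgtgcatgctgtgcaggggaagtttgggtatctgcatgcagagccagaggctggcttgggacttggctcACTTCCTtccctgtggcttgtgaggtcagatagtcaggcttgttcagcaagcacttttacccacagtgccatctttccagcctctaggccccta
Gm11146 (chr16:77318241-77318441): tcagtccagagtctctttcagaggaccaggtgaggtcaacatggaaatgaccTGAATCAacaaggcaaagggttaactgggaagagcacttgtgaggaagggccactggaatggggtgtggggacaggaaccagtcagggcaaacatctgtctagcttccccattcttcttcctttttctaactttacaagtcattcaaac
Msc (chr1:14578953-14579153): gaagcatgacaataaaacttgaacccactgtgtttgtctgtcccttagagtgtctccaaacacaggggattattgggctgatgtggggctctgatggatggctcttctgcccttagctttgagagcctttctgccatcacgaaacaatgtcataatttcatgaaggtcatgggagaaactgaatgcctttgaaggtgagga
1700016C15Rik (chr1:177623548-177623748): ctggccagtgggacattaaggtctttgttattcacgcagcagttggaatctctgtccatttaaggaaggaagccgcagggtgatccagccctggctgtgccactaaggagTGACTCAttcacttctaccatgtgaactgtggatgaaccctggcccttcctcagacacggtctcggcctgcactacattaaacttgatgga
Mctp1 (chr13:76597206-76597406): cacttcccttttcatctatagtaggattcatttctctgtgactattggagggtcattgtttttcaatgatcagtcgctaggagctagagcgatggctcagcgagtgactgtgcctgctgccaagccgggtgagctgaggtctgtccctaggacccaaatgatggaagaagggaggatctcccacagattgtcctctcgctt
PU.1-type letters stood in the Adgrl2 and Bbs9 windows, with 2 matches and 1 match. AP-1 letters stood once each in the Gm11146 and 1700016C15Rik windows. The other windows held neither, which says only that these letters are not in these 201 bases.

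These 8 regions had high coverage under both treatments. The region nearest Ppp3ca, which encodes a catalytic subunit of calcineurin, lay in an intron of that gene, 121 kb from its gene start and 44.0 kb from the nearest transcript start. It had 50 fragments at the summit under LPS (exact Poisson interval 37.1 to 65.9) and 48 under PBS (35.4 to 63.6), and ranked 141 in the LPS list and 16 in the PBS list. The region nearest Ednrb, the endothelin receptor type B gene, was intergenic at 102 kb and had 59 fragments under LPS and 49 under PBS, the highest LPS count of all distal shared peaks. The Adgrl2 region was intergenic at 742 kb from this adhesion receptor gene and had 51 and 45 fragments. In each of these 3 regions the PBS count lay inside the interval of the LPS count. The 8 were picked for high ranks in both lists, so high counts under both treatments follow from the choice.
The region in an intron of Bbs9, a gene of the BBSome of cilia, had 44 fragments under LPS and 37 under PBS and lay 5.67 kb from a transcript start. The intergenic region nearest Msc had 38 and 42, that nearest 1700016C15Rik had 43 and 41, and the one in an intron of Mctp1, 17.6 kb from a transcript start, had 39 and 38. The Gm11146 region, 284 kb from that gene, differed more, with 56 fragments under LPS (42.3 to 72.7) and 34 under PBS (23.5 to 47.5).

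Ranked by the LPS list alone, the first 10 distal shared peaks had 45 to 56 summit fragments under LPS and 21 to 49 under PBS. They had fold enrichments of 19.2 to 22.2, and 6 of them were intergenic and 4 intronic. The first was chr7:129755562-129757228, intergenic and 164 kb from Wdr11, with 54 fragments under LPS and 21 under PBS, and it was 1667 bp wide. The next was chr13:89884371-89886118, in an intron of the DNA repair gene Xrcc4 and 143 kb from Vcan, which encodes the matrix proteoglycan versican, with 52 and 33. The third, chr2:6713512-6714984, was in an intron of Celf2, an RNA-binding protein gene, with 50 and 21. It lay 391 kb from the nearest gene start, that of Usp6nl, but only 7.77 kb from a transcript start, and so it is among the members lost with transcript starts. The region nearest Cpeb2 had 47 fragments under LPS and 49 under PBS, and the rest of these 10 had more under LPS. All were picked for their LPS values, so mostly higher LPS counts follow from the choice.

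The distal shared peaks were close in strength and width to shared peaks at 10 to 100 kb of a TSS, while those within 1 kb were narrower and weaker. Their median width was 491.5 bp (quartiles 287 and 826), and their median fold enrichment was 6.82 (5.39 and 8.74). Median width was 499 bp for the 22842 shared peaks at 10 to 100 kb of a TSS, 472 bp for the 11605 at 1 to 10 kb and 364 bp for the 1857 within 1 kb. Median fold enrichment was 6.82, 6.55 and 6.18 in the same order. The summit had a median of 20 fragments under LPS (16 and 25, range 8 to 59) and 20 in the PBS counterpart (16 and 25, range 8 to 56). The distance to the nearest TSS had a median of 161314 bp, with 2108 distal shared peaks beyond 200 kb, 336 beyond 500 kb and 58 beyond 1 Mb. The farthest, chr5:59995948-59997237, chosen after its distance was seen, lay 1812 kb from G6pd2 and had 22 fragments under LPS and 12 under PBS.

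The limits of the rule cut through a continuum. The distal shared peak nearest to the distance limit, chr13:19519739-19519999, was 100033 bp from Epdr1, and the shared peak just outside it, chr3:136425477-136426323, was 99964 bp from Bank1, with fold enrichments of 6.71 and 14.1. There were 72 distal shared peaks within 1 kb beyond the limit and 90 shared peaks within 1 kb short of it. The widest distal shared peak was 1994 bp wide and 108 kb from Prdm1, and the narrowest peak left out by width was 2001 bp wide and 100909 bp from Slc25a13. Of the 6042, 3 shared exactly 1 bp with the PBS peak and 143 shared under 50 bp.

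Peaks of the 2 lists overlapped in part. The shared stretch had a median of 306 bp (quartiles 180 and 518), which was 47.4% of the stretch covered by either peak (29.5 and 67.7). The summits lay a median of 121 bp apart (45 and 290), against 119 bp for the other 36304 shared peaks. The LPS summit fell inside the PBS peak for 80.0% of distal shared peaks (78.9 to 80.9) and the PBS summit inside the LPS peak for 76.7% (75.7 to 77.8). More than 1 PBS peak was met by 11.3% (10.5 to 12.1), and 5458 different PBS peaks served as counterparts.

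The share of LPS peaks with a PBS counterpart differed between bands of distance to a gene start. Of the 9250 LPS peaks beyond 100 kb, 65.3% were shared (64.3 to 66.3), compared with 64.9% at 10 to 100 kb, 57.2% at 1 to 10 kb and 35.9% within 1 kb. The share was 60.5% over all LPS peaks under 2000 bp. Sharing is part of the rule, so this describes the lists and was not tested. With an overlap of 50% of both peaks the share beyond 100 kb was 33.4%. With the overlap of 1 bp it was 45.9% (42.7 to 49.1) in the weakest of 10 classes of the LPS list by −log10 q. It was 43.1% in class 3 and rose in steps from there to 95.7% (94.2 to 96.8) in the strongest. For peaks within 100 kb it was 39.7% in the weakest class and 94.7% in the strongest. In the other direction, 2100 of 8494 PBS peaks beyond 100 kb had no LPS counterpart.

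**Figure D1:**
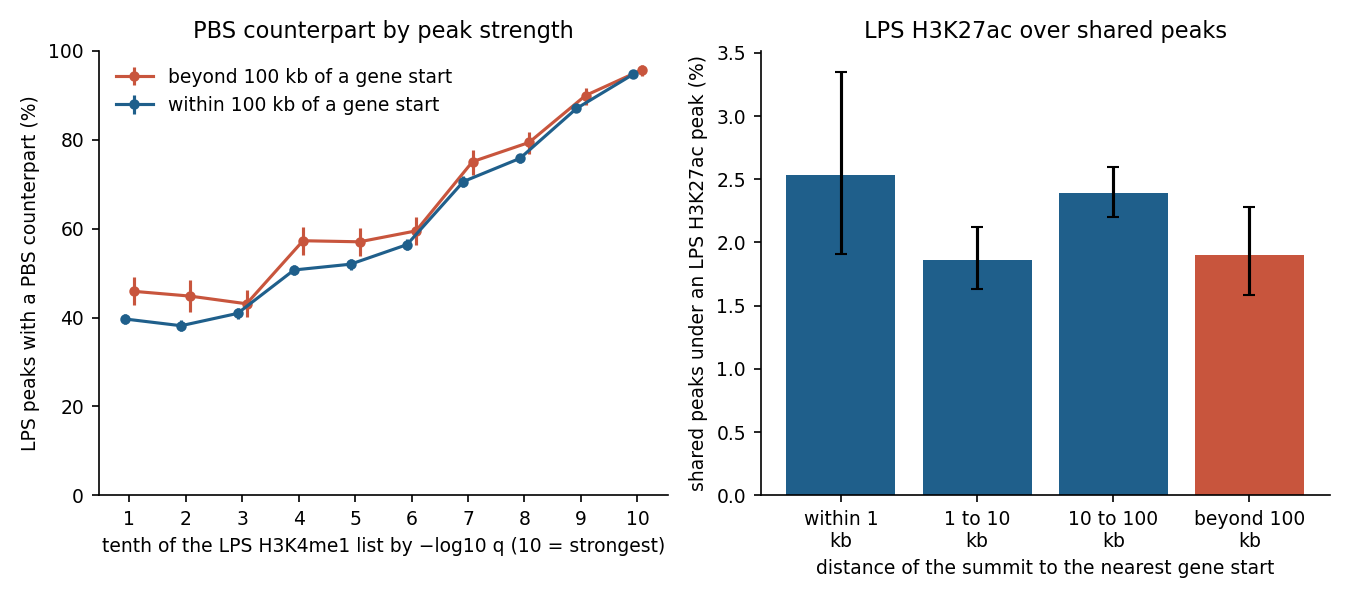
Left, percent of LPS H3K4me1 peaks with a PBS counterpart (y axis) in 10 classes of the LPS list by −log10 q (x axis, 10 the strongest), beyond 100 kb and within 100 kb of a gene start; right, percent of shared H3K4me1 peaks under an LPS H3K27ac peak (y axis) in 4 bands of distance to the nearest gene start (x axis), bars from 0. Points and bars are shares with 95% Wilson intervals; sharing reaches 95.7% beyond 100 kb in the strongest class, and H3K27ac stays between 1.86% and 2.53% in every band.

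The LPS count at a distal shared peak and the count at the summit of its PBS counterpart were close for most of them. The 2 summits can lie apart, and 1 PBS peak can serve several LPS peaks, as 5458 PBS peaks served the 6042. Scaled to the depth of each library, the LPS to PBS ratio of summit fragments had a median of 0.03 on the log2 scale (quartiles -0.29 and 0.31), and 0.04 over all shared peaks. At least 2-fold more fragments under LPS were found at 68 of the 6042 (1.13%, interval 0.889 to 1.42), compared with 1.26% of all shared peaks. At least 2-fold fewer were found at 120 (1.99%, interval 1.66 to 2.37), compared with 1.54% of all shared peaks. The rule asks for a peak in both lists, which holds these ratios near 1, and counts near 20 vary widely by sampling alone. Spearman's rho between the counts of the 6042 was 0.54, and 0.54 over the other shared peaks, a description across regions that share 2 libraries.

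The 120 peaks with fewer fragments under LPS had a median of 12 under LPS and 28.5 under PBS. Their median width was 212 bp under LPS and 1020 bp for the PBS counterpart, so that a narrow LPS peak was set against a broad PBS one. They were nearest to 96 genes, with 4 of 25 members at Marcks, which encodes an actin-binding substrate of protein kinase C, and 3 each at Maf, Spdye4c, Abcb5 and Cpped1. The 68 with more fragments under LPS had a median of 28 under LPS and the opposite widths, with medians of 645.5 bp under LPS and 336.5 bp for the PBS counterpart. They were nearest to 64 genes, none of which had over 2 of them. The part of peak width in the ratios of either class was not tested.

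**Figure D2:**
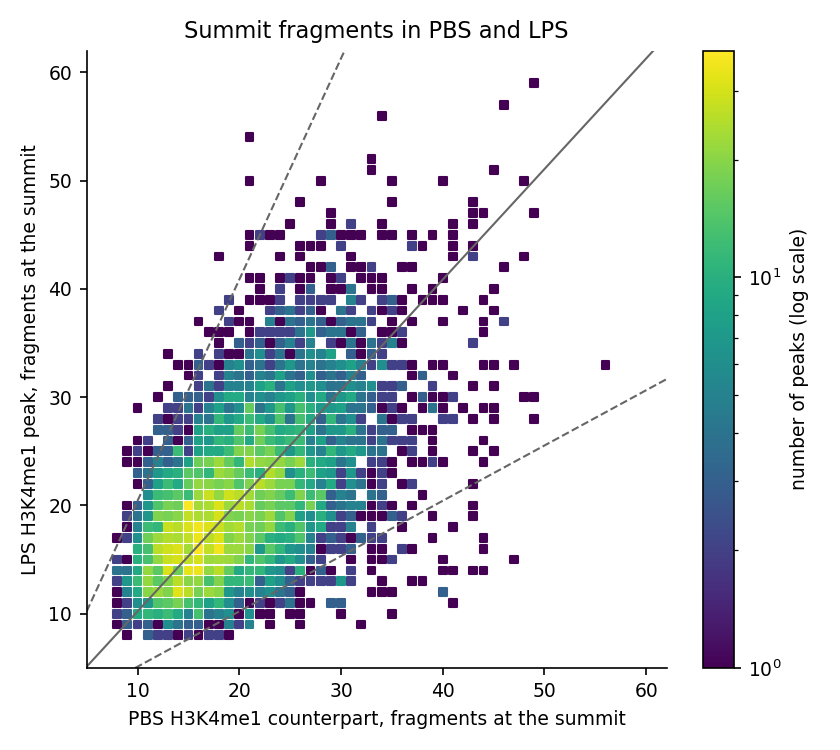
Fragments at the summit of each distal shared peak under LPS (y axis) and of its PBS counterpart (x axis), with colour giving the number of peaks at each pair of counts on a log scale. The solid line marks equal depth-scaled counts and the dashed lines 2-fold differences; 68 peaks lie on or above the upper dashed line and 120 on or below the lower one.

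The distal shared peaks were thinly and unevenly spread. Sequence beyond 100 kb of every protein-coding gene start made up 1036 Mb, or 43.2% of the sequenced bases of chromosomes 1 to 19, and held 14.3% of shared peaks. This was 5.83 distal shared peaks per Mb, against 26.7 shared peaks per Mb elsewhere. The 1036 Mb fell into 2526 stretches, 931 of which (36.9%) held at least 1 distal shared peak. Among the 276 stretches with 1 Mb or more of sequence, 154 held none. The longest of these empty stretches, 5.22 Mb, lay between Pcdh20 and Pcdh9, which encode neuronal protocadherins, and another of 4.80 Mb lay between Cntnap5b and Cdh20. The densest of 1 Mb or more, between Wwox and Maf, had 40 in 1.07 Mb. By chromosome the density ran from 3.72 per Mb on chromosome 11 to 10.4 per Mb on chromosome 13.

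Many distal shared peaks stood in runs. Neighbours in a run can meet the same PBS peak, as chr1:80636456-80637015 and chr1:80637196-80637421 in Dock10 did. A count of peaks is therefore not a count of separate PBS regions. When neighbours were joined across gaps up to the default stitching distance of the super-enhancer caller ROSE, they formed 2338 groups, 1090 of a single peak and 326 of 5 or more, which held 2554 peaks (42.3%). The group with the most, chr6:97396944-97485473, had 36 peaks over 88.5 kb inside Frmd4b, a gene for a FERM domain scaffold protein. Its peaks had 9 to 31 fragments under LPS and 12 to 34 under PBS. The next, chr17:5187555-5262544, had 33 peaks over 74.99 kb inside Arid1b, which encodes a subunit of the BAF chromatin remodelling complex, with medians of 21 and 20.
The third, chr2:45219618-45281088, was intergenic and had 27 peaks over 61.5 kb, from 103 to 164 kb from Zeb2, with 8 to 29 fragments under LPS and 12 to 33 under PBS. A group of 24 over 59.9 kb lay in Asap1, an ARF GTPase-activating protein gene, and 1 of 22 over 55.1 kb in Zfhx3, a zinc finger homeobox gene.

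Distal shared peaks were nearest to 1198 genes, 29.7% of the 4039 protein-coding genes that border sequence beyond 100 kb. Tprg had the most, 47, all upstream and at 224 to 409 kb, and 22 of them lay inside Lpp. Zeb2, a zinc finger repressor that shapes macrophage identity, had 45, all upstream at 103 to 1249 kb and none inside a gene. Foxp1, a forkhead factor, had 44, all inside the gene itself. Adgrl2 had 43, Cited2, a partner of the CBP and p300 acetyltransferases, 42, and Nrp1, a receptor for semaphorins and VEGF, 37. Maf, a basic leucine zipper factor of macrophages, had 37, all downstream at 108 to 438 kb. Pid1 had 33, and Ldhal6b and Frmd4b had 31 each. Median fragments at the summit were 17 under LPS and 17 under PBS for Zeb2, 21 and 23 for Foxp1, and 20 and 24 for Maf. With the start of every transcript in place of gene starts, all 45 regions of Zeb2 and all 37 of Maf stayed beyond the limit, 35 of the 47 of Tprg did, and 0 of the 44 of Foxp1 and 0 of the 31 of Frmd4b did. The nearest gene is a position on the map, and which gene a region acts on was not measured.

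**Figure D3:**
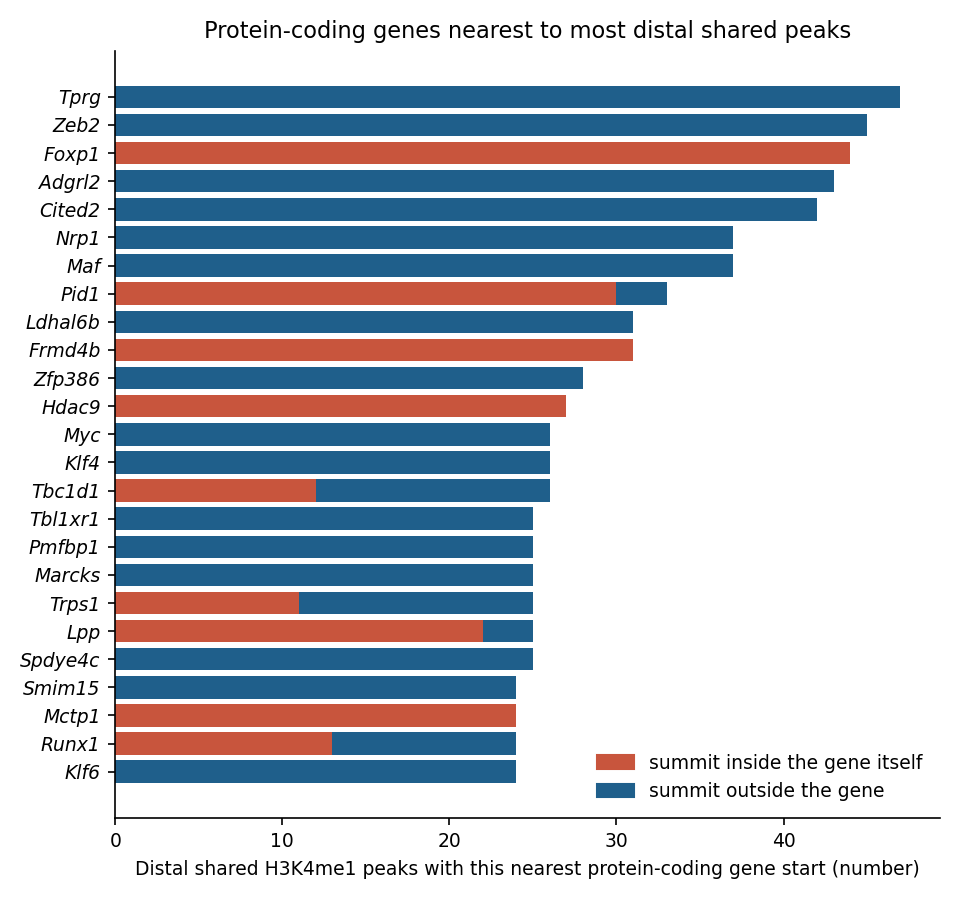
Number of distal shared H3K4me1 peaks (x axis, bars from 0) whose nearest protein-coding gene start is that of each of the 25 genes with most (y axis), split by whether the summit lies inside that gene. Tprg leads with 47, followed by Zeb2 with 45, none of them inside the gene, and Foxp1 with 44, all inside it.

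Only a gene longer than the distance limit can hold a summit that far from its own start, so the hosts were long by the rule. Foxp1 and Lpp, a LIM domain gene of focal adhesions, held 44 each, Arid1b 42, Frmd4b 40, and Zfhx3 and Asap1 38 each. The gene 2010111I01Rik held 37, Snx29 36, Akap13, a kinase-anchoring protein gene, 32, and Nav2 30. These 10 genes were 296 to 1019 kb long. Summits inside genes had medians of 20 fragments under LPS and 20 under PBS, and those outside 20 and 19.

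The peaks were then read against 4 gene lists. Of 35 macrophage transcription factors, 21 bordered sequence beyond 100 kb, and 14 of these (66.7%, interval 45.4 to 82.8) were nearest to at least 1 distal shared peak. Together they had 265, or 31.5 per Mb of such sequence beside the listed genes, against 5.83 per Mb over all genes. Beside Zeb2 and Maf these were Myc and Klf4 with 26 each, Runx1 and Klf6 with 24 each, Mef2c with 23, Id2 with 21, Bhlhe40 with 10, Ets2 with 9, Etv6 with 8, Mitf with 6, Bcl6 with 4 and Mef2a with 2. With every transcript start, Bhlhe40, Etv6, Mitf and Mef2a kept 0 of theirs, Runx1 kept 11, Mef2c 13 and Ets2 8. Zeb2, Maf, Myc, Klf4, Klf6, Id2 and Bcl6 kept all. The share of genes and the density were not recomputed with transcript starts. All 26 of Klf4, a zinc finger factor of monocytes, lay upstream at 106 to 582 kb, with medians of 21 and 23 fragments. All 26 of Myc, a growth regulator, lay downstream at 120 to 824 kb, with medians of 19 under LPS and 23 under PBS. The 7 listed factors without one included Irf8, which bordered only 74.0 kb of such sequence, and Tfec, which bordered 489 kb.

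Of 40 LPS response genes, 11 bordered sequence beyond 100 kb and 6 had distal shared peaks (54.5%, interval 28.0 to 78.7), 59 in all or 33.5 per Mb. Marcks had 25, all upstream at 119 to 262 kb, with medians of 21 fragments under LPS and 28 under PBS. Jun, an AP-1 subunit, had 19, all upstream, with medians of 19 and 18. Nfkbiz, which encodes a nuclear cofactor of NF-kB, had 11, Tnfaip3, the NF-kB inhibitor A20, had 2, and Ptpn1 and Peli1 had 1 each. Il6, Il12b, Nfkb1, Ptgs2 and Cd83 had none, and they bordered 38.6, 149, 2.97, 9.69 and 372 kb of such sequence. Marcks and Jun held 44 of the 59, and without both the density was 17.3 per Mb (exact Poisson interval 9.70 to 28.6). Of the 15 peaks then left, 11 were beside Nfkbiz. The interval takes peaks as independent, so it does not cover the spread between genes.

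The other two lists had lower densities. Their intervals for the share of genes, like that of the LPS response genes, include the 29.7% of all bordering genes. This is not a test, as the intervals cover neither the choice of genes nor the amount of sequence each gene bordered. The 21 macrophage transcription factors bordered 8.42 Mb of sequence beyond 100 kb, the 11 LPS response genes 1.76 Mb and all 4039 genes 1036 Mb. Of 35 macrophage surface and effector genes, 6 bordered such sequence and 2 had distal shared peaks (33.3%, interval 9.68 to 70.0), Abca1, a cholesterol transporter gene, and Tlr4, the LPS receptor, with 2 each (2.24 per Mb). Of 40 developmental regulators of other tissues, 37 bordered it and 9 had distal shared peaks (24.3%, interval 13.4 to 40.1), 69 in all or 3.72 per Mb. Foxp1, which is also expressed in blood cells, had 44 of these 69, and without it the density was 1.38 per Mb. Without Zeb2 and Maf that of the macrophage transcription factors was 31.3 per Mb. Leaving out leading genes was chosen after seeing the data. Beside Foxp1, the developmental regulators with distal shared peaks were Tshz1 with 7, Sox9 with 6, Nr2f2 with 4, Dach1 with 3, Sox5 with 2, and Lmx1b, Meis1 and Bmp2 with 1 each. The members and lists were drawn up with results of these data known, genes were not sampled at random, and no list was tested.

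**Figure D4:**
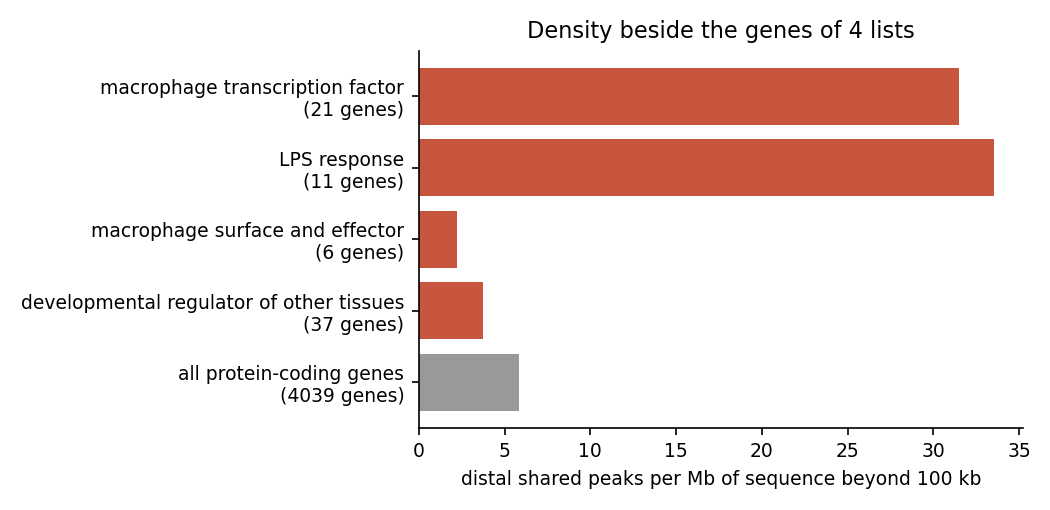
Distal shared H3K4me1 peaks per Mb of sequence beyond 100 kb of every gene start (x axis, bars from 0) in the parts nearest to the genes of 4 lists and to all protein-coding genes (y axis, with the number of genes that border such sequence). Macrophage transcription factors have 31.5 per Mb and LPS response genes 33.5 per Mb, against 5.83 per Mb for all genes. Without Marcks and Jun the LPS response genes have 17.3 per Mb. The lists were drawn up with results of these data known, and no list was tested.

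Few distal shared peaks met an LPS H3K27ac peak, and that list was short, with 4200 peaks against 73049 for LPS H3K4me1. The H3K27ac libraries held an inferred 5660000 fragments under LPS and 7210000 under PBS. An LPS H3K27ac peak overlapped 115 of the 6042, or 1.90% (1.59 to 2.28), compared with 2.18% of all shared peaks under 2000 bp. The share was 2.39% (2.204 to 2.60) at 10 to 100 kb, 1.86% (1.63 to 2.12) at 1 to 10 kb and 2.53% (1.91 to 3.35) within 1 kb. In the strongest of the 10 classes of LPS peaks it was 2.79% (1.90 to 4.09), and 3.32% (2.85 to 3.86) for peaks within 100 kb. The overlapping H3K27ac peaks had 5 to 16 fragments at the summit, with a median of 9, and 38 of the 115 members were met by one with a −log10 q of at least 5. Of 697 LPS H3K27ac peaks beyond 100 kb, 117 (16.8%) met a distal shared peak, and 519 (74.5%) met no H3K4me1 peak of either list. The PBS H3K27ac list held only 52 peaks and met 3 distal shared peaks, so the treatments could not be compared.

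A region is called acetylated here if an LPS H3K27ac peak met it over at least 1 bp, wherever the H3K27ac summit lay. Within 200 bp of the H3K4me1 summit lay 61 H3K27ac summits, and the median offset was 170 bp. The 115 acetylated regions were nearest to 90 genes and had more H3K4me1 than the rest, with medians of 24 fragments under LPS and 22 under PBS against 20 and 19. They were also wider, with a median of 778 bp against 487 bp, and a wider peak is more easily overlapped. The strongest H3K27ac peak on a distal shared peak had 16 fragments and met chr13:63253986-63254706, in an intron of 2010111I01Rik and 243 kb from Fancc, a Fanconi anaemia gene. Its H3K4me1 count was 23 under LPS and 29 under PBS, and the summits of the 2 marks were 1054 bp apart. The same H3K27ac peak also met chr13:63253157-63253405, where its summit was 369 bp away, with 28 H3K4me1 fragments under LPS and 21 under PBS. In all, 4 of the 10 regions under the strongest H3K27ac peaks were in this gene, where the strongest shared only 2 bp with its H3K27ac peak. By nearest gene start, Fancc had 5 acetylated regions under 4 different H3K27ac peaks, and Zeb2 and Klf14 had 4 regions under 4 peaks each. Another 15 genes had 2 acetylated regions each, among them Klf4, Etv6, Prdm1 and Tril, and 72 had 1.
Other regions of the 10 strongest were in introns of Hdac4, Gas7, Frmd4b and Creb5, and intergenic near Klf7 and Prdm1. The 8 intronic regions were near an annotated protein-coding transcript start, from 3.02 kb for Frmd4b to 20.2 kb for Hdac4 and 14.5 kb for the strongest, so that transcript starts would leave only the Klf7 and Prdm1 regions beyond the limit. The Hdac4 region had 16 H3K27ac fragments, with 24 H3K4me1 fragments under LPS and 19 under PBS. The region near Prdm1, which encodes the repressor BLIMP1, had 12 H3K27ac fragments at 102 kb from the gene, with 24 and 22 for H3K4me1. The Creb5 region, 228 kb from Tril, a gene for a TLR4 accessory protein, had 11, with 31 and 29. Among these 10, H3K4me1 counts under LPS ran from 16 to 31, against 59 at the highest of all distal shared peaks.

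PU.1-type letters were the most frequent of 9 motifs at the summits. AGGAAGT on either strand stood within 200 bp of the LPS summit in 1550 of the 6042 distal shared peaks, or 25.7% (24.6 to 26.8). In windows of the same length 2 kb to the left and right of the same summits it stood in 10.4% (9.65 to 11.2) and 11.3% (10.5 to 12.1). The share was 24.0% (23.4 to 24.5) for shared peaks at 10 to 100 kb, 20.9% at 1 to 10 kb and 14.8% within 1 kb, and 20.6% over all LPS H3K4me1 peaks of chromosomes 1 to 19. Matches per 1000 peaks and 50 bp bin rose from 14.4 at 1000 bp to the left to 45.5 just right of the summit and fell to 12.9 at 1000 bp to the right.

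AP-1 letters, TGANTCA, stood in 21.5% (20.5 to 22.5), against 12.6% in each flank, 19.5% (18.98 to 20.0) for shared peaks at 10 to 100 kb and 17.6% over all LPS H3K4me1 peaks. Both kinds stood together in 5.88% (5.31 to 6.50), against 1.24% and 1.34% in the flanks and 4.37% (4.12 to 4.65) at 10 to 100 kb. The RUNX letters TGTGGTT stood in 12.3% (11.5 to 13.2) against 9.27% and 8.97%, and the C/EBP letters TTGCNNAA in 19.9% (18.96 to 20.97) against 17.3% and 17.99%. The NF-kB letters GGGANTTCC or GGANTTTCC stood in 3.61% (3.17 to 4.11) against 2.73% and 2.68%, and the MITF/TFE letters CACGTGA in 2.58% (2.21 to 3.01) against 1.79% and 2.02%.
The IRF letters GAAANNGAA stood in 14.7% (13.8 to 15.6), and the flanks had 13.7% and 14.8%. The GATA and octamer letters were no more frequent at the summits than beside them. The GATA letters AGATAAG stood in 5.16% (4.63 to 5.75) against 6.41% and 6.07%, and the octamer letters ATGCAAAT in 2.48% (2.12 to 2.91) against 2.78% and 3.43%. At 10 to 100 kb the shares were 11.7% for RUNX, 18.3% for C/EBP, 3.85% for NF-kB, 2.27% for MITF/TFE, 14.4% for IRF, 5.41% for GATA and 2.12% for the octamer. Matches of different motifs can share bases and were counted for each, and a match is a string of letters and not a bound site. PU.1 and AP-1 shares were 24.7% and 20.1% for summits inside genes and 26.7% and 22.9% for those outside. The 115 acetylated regions had 27.8% (20.5 to 36.6) and 29.6% (22.0 to 38.5).

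**Figure D5:**
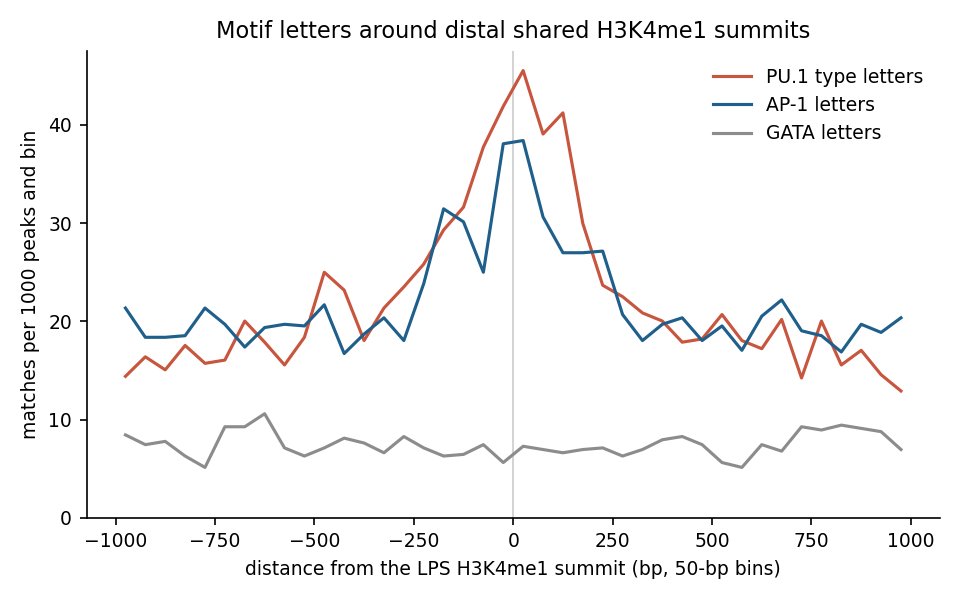
Matches to the PU.1-type, AP-1 and GATA letters per 1000 distal shared peaks and 50 bp bin (y axis) against distance from the LPS H3K4me1 summit (x axis, bp). PU.1-type letters rise to 45.5 beside the summit and AP-1 letters to 38.4, while GATA letters do not rise there.

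The summits were richer in G and C and poorer in repeats than their surroundings. Median GC content within 200 bp of the summit was 45.4% (quartiles 41.9 and 48.9), against 43.1% and 42.9% in the flanks. It was 46.6% for shared peaks at 10 to 100 kb and 56.4% within 1 kb. Repeat-masked bases made up 14.6% of the window on average, against 23.4% in each flank, and at least 50% of the window was masked for 249 distal shared peaks (4.12%). The PU.1 share was higher at the summits, where GC content was higher than in the flanks, and lower within 1 kb of a TSS, where GC content was highest. The part of GC and repeat content in the motif shares was not tested.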

How the data were processed

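CUT&RUN peak lists of 4 libraries were used. Neither of the 2 IgG libraries was analysed here. The authors aligned reads to GRCm38 with Bowtie2 2.4.4, removed blacklisted regions and called peaks per library with MACS2 2.2.7.1. The deposited fold enrichment is a linear ratio at the summit, with 1 added to both coverage and background. The deposited −log10 p and −log10 q are the peak caller's own values. Overlaps, distances and sequence counts were computed from the lists with pandas 2.3.3 and numpy 2.4.6, with a minimum overlap of 1 bp. Gene starts came from GENCODE M21, while the authors named a later release of the same build, and sequence from RefSeq GRCm38.p6. Fragments per summit were solved from fold enrichment and p, with p returned within 0.002 in −log10 units for 100% of peaks. Depth was inferred from the background level.

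The members and lists were chosen with earlier results of these data known. Named regions were the 10 with the highest LPS −log10 q, the 10 with the highest mean percentile in both lists, the 10 under the strongest LPS H3K27ac peaks, the 5 largest joined groups and those nearest each limit, with their nearest and host genes. Named genes were also the 10 nearest to most members, the 10 hosts of most members and every listed gene with a member. The 8 sequences are the first by mean percentile on chromosomes other than 18. Alternatives varied the limits, the overlap, the TSS set, the lists and the window.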

Additional observations from a re-analysis of the deposited data

Results flagged for a closer look

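Signal of the same kind appeared outside the rule. Chromosome X held 69 shared H3K4me1 peaks under 2000 bp beyond 100 kb of every protein-coding gene start, 11.3% (9.04 to 14.1) of its 610 shared peaks of that width, with a median of 15 summit fragments for either treatment and none under an LPS H3K27ac peak. Chromosomes 1 to 19 held 207 shared H3K4me1 peaks of 2000 bp or wider beyond the same distance, 12.1% (10.6 to 13.7) of 1714. These had medians of 34 and 29 fragments, and 17 of them met an LPS H3K27ac peak.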

How the results depend on the processing

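Of 52 alternative values for 11 results, 23 stayed within the counting interval of the value as reported (within 1.5 times for the number of peaks) and 29 did not. The 15 values that used the start of every protein-coding transcript or left the 1 or 2 leading genes out of a gene list were added after seeing the data. The number of distal shared peaks was 3418 with both lists held to a −log10 q of at least 5, 3089 with an overlap of 50% of both peaks, 12337 at a limit of 50 kb, 2108 at 200 kb, 1056 with the TSSs of all annotated genes and 3321 with every transcript start. Their share of shared peaks was 15.03%, 14.6%, 29.1%, 4.98%, 2.49% and 7.84% in the same order. The share of distal LPS peaks with a PBS counterpart was 59.7% at the stricter q, 33.4% with the 50% overlap and 64.3% at 200 kb. The share under LPS H3K27ac was 2.91% when a peak within 500 bp counted and 0.629% with the stricter q for H3K27ac. The share inside a protein-coding gene was 40.4% at 200 kb, 67.7% with the TSSs of all annotated genes and 20.5% with every transcript start, so this share rests on the TSS set. PU.1-type letters stood in 14.8% of windows of 100 bp on either side. Median GC content was 47.8% in those windows, 44.6% at 200 kb, 44.9% with all annotated genes and 44.9% with every transcript start. With 1 library per group, no replicate could be left out. No paired analysis was possible because no group has more than 1 library.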

Other observations

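The 3208 LPS H3K4me1 peaks beyond 100 kb that had no PBS counterpart held PU.1-type letters within 200 bp of the summit in 21.4% of windows (20.0 to 22.9) and AP-1 letters in 20.0% (18.6 to 21.4). Their median GC content was 44.9%, and 5.77% (5.01 to 6.63) of their windows were at least 50% repeat-masked. Among the 605 of the 6042 distal shared peaks that were lowest by mean percentile over both lists 22.1% (19.02 to 25.6) held PU.1-type letters. Among the 605 highest of the 6042 it was 26.3% (22.9 to 29.9). AP-1 letters stood in 19.5% (16.5 to 22.8) and 24.5% (21.2 to 28.0), and both kinds together in 4.46% (3.08 to 6.42) and 7.27% (5.46 to 9.62), so that the intervals of each pair overlapped. Distance to the nearest gene start and LPS summit fragments were nearly unrelated over the 6042 distal shared peaks, with a Spearman's rho of -0.03, a description across regions of 1 library.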
